A study of Homo sapiens with 2 samples.

Results

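Among the 7060 barcodes with at least 15000 unique molecular identifiers (UMIs, one per captured RNA molecule) in 2 single-cell libraries of UMUC3 cells, 928 held almost no MALAT1 and almost no mitochondrial RNA. They were chosen by measured values: MALAT1 below 0.1% and the 13 mitochondrially encoded genes together below 0.2% of a barcode's UMIs. The first library held UMUC3, a human bladder carcinoma line, with a knockdown of GANAB, and the second held UMUC3 labelled as control. Both were grown for 14 days in the bladders of C57 nude mice, so that host cells could be present. GANAB encodes the catalytic subunit of glucosidase II, which trims glucose from new N-glycans in the endoplasmic reticulum (ER). The labels name neither the knockdown construct nor the number of mice, and each group is 1 library.

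MALAT1 is a long noncoding RNA that is kept in the nucleus, close to the speckles that store splicing factors. Mitochondrially encoded mRNAs are made and translated inside the organelle, whereas most respiratory chain subunits are encoded in the nucleus and translated in the cytosol. A barcode's shares of MALAT1 and of mitochondrial RNA are therefore used in single-cell work as readings of nuclear and of mitochondrial content.

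The knockdown library gave 493 such barcodes of 2674, which is 18.4% (95% Clopper-Pearson interval 17.0 to 19.96). The control library gave 435 of 4386, or 9.92% (9.05 to 10.8). Between 5000 and 15000 UMIs the order was reversed, with 51.6% in the knockdown and 62.0% in the control library. All intervals here cover counting error only, and with 1 library per group no difference has a replicate check or a test. Each library's barcodes were set against its other cells, meaning barcodes with at least 15000 UMIs, at most 20% mitochondrial UMIs and at least 1 of both limits exceeded: 2179 in the knockdown and 3950 in the control library. Since the choice used the measured values, the comparison with other cells is a description. No cell barcode among those shared by both libraries (4 with at least 15000 UMIs) belonged to the chosen ones in either library. No doublets were removed.

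**Figure D1:**
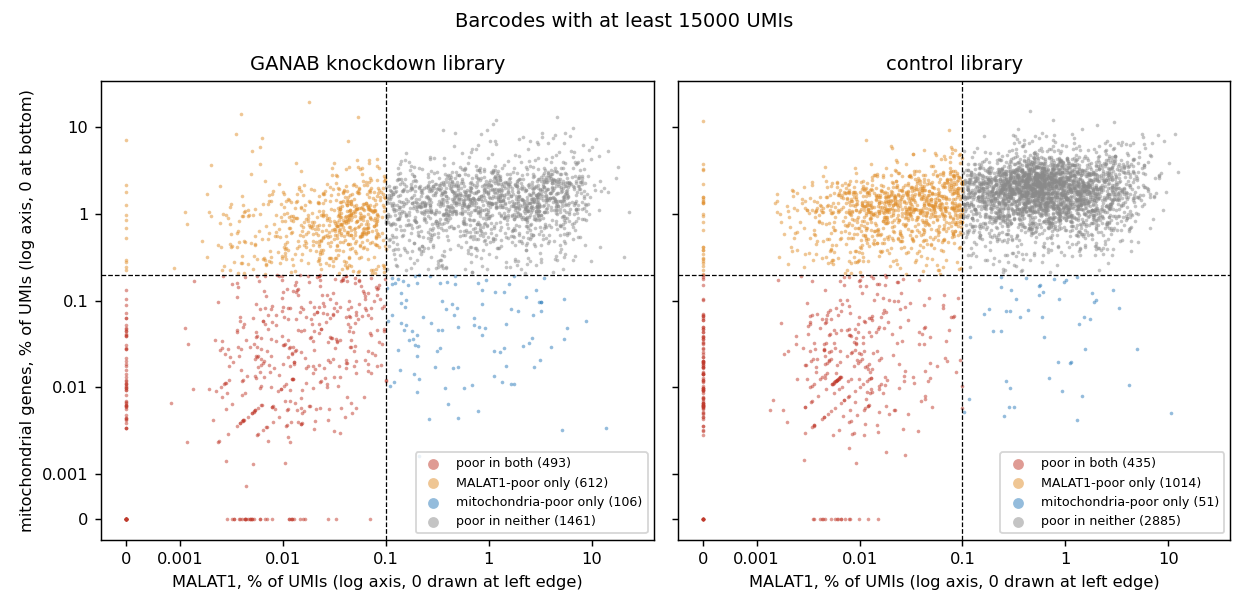
Each point is a barcode with at least 15000 UMIs, placed by its percentage of MALAT1 UMIs (horizontal, log axis) and of mitochondrial UMIs (vertical, log axis), with the limits of 0.1% and 0.2% dashed. The 493 knockdown and 435 control barcodes poor in both lie at lower left with medians of 0.0101% and 0.00599% MALAT1 and of 0.0201% and 0.0177% mitochondrial UMIs.

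The chosen barcodes lay far inside both limits. Their median MALAT1 share was 0.0101% in the knockdown and 0.00599% in the control library, against 0.457% and 0.406% in the other cells of the same libraries. The median mitochondrial share was 0.0201% in the knockdown and 0.0177% in the control library, against 1.15% and 1.66% in other cells. MALAT1 had no UMI in 73 knockdown and 107 control barcodes, and the mitochondrial genes had none in 52 and 28. Just inside the limits, the highest MALAT1 shares were 0.0995% in the knockdown and 0.0997% in the control library, and just outside, among barcodes meeting the mitochondrial limit, the lowest were 0.103% and 0.105%. The highest mitochondrial share inside was 0.199% in both libraries, and the lowest outside, among barcodes meeting the MALAT1 limit, was 0.203% in the knockdown and 0.201% in the control library. Within 20% of the MALAT1 limit lay 17 knockdown and 7 control barcodes, and within 20% of the mitochondrial limit 34 and 20. Free RNA, read from barcodes of 10 to 100 UMIs, was 0.730% MALAT1 and 4.19% mitochondrial in the knockdown library and 0.744% and 4.44% in the control library. These free RNA levels lie above both limits of the choice.

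Low mitochondrial RNA came mostly with low MALAT1, but low MALAT1 came mostly without low mitochondrial RNA: of all MALAT1-poor barcodes, 44.6% in the knockdown and 30.0% in the control library were also mitochondria-poor. Of all mitochondria-poor barcodes, 82.3% in the knockdown and 89.5% in the control library were also MALAT1-poor. Among the remaining cells, with more mitochondrial RNA, MALAT1 was below its limit in 29.5% and 26.0%. The other cells comprised 612 knockdown and 1014 control cells that were MALAT1-poor only, 106 and 51 that were mitochondria-poor only, and 1461 and 2885 that were poor in neither.

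The barcodes poor in both RNAs were also shallower and less diverse. Their median UMI count was 29919 in the knockdown and 25846 in the control library, against 43370 and 46188.5 in other cells. At an equal depth of 15000 UMIs, a median of 2928 genes was detected in the knockdown and 2991 in the control barcodes, against 3520 and 3587 in other cells. Ribosomal protein genes took a median of 41.8% and 41.1% of UMIs, against 34.8% and 33.3% in other cells. The part of depth in the differences below was not tested. Some values below use only other cells within the 5th to 95th percentile of the chosen barcodes' UMIs, which need not equalise depth.

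Some RNAs kept in the nucleus were low and others were not. NEAT1, the long noncoding RNA that builds paraspeckles (GRCh38 chromosome 11, 65422774 to 65445540, plus strand), lies beside MALAT1 (65497688 to 65506516, plus strand). It stood at 126 CPM (a gene's UMIs scaled to a common total) in the knockdown barcodes, against 737 CPM in the other knockdown cells, a log2 ratio of -2.54 (95% counting interval -2.60 to -2.48). In the control library it stood at 65.3 CPM, against 576 CPM in other cells, a log2 ratio of -3.14 (-3.24 to -3.04). Both libraries thus had far less NEAT1 in the chosen barcodes, and free RNA held 553 CPM in the knockdown and 608 CPM in the control library. After thinning to 15000 UMIs, NEAT1 was seen in 65.3% of the knockdown barcodes (60.9 to 69.5; 79.1% unthinned), against 93.4% of other cells (98.5% unthinned). In the control library the thinned share was 44.1% (39.4 to 48.9; 56.8% unthinned), against 89.0% (96.6% unthinned).

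KCNQ1OT1, a nuclear antisense RNA of the KCNQ1 imprinted region, stood at 1.01 CPM in the knockdown barcodes, against 10.2 CPM in other cells, and at 0.519 CPM, which is 7 UMIs, against 18.4 CPM in the control library. GABPB1-AS1, an antisense noncoding RNA, stood at 15.4 CPM in the knockdown barcodes, against 77.6 CPM in other cells, and at 12.4 CPM against 82.0 CPM in the control library. PNISR, whose product is a serine and arginine-rich protein of splicing speckles, stood at 52.7 CPM against 184 CPM in the knockdown and at 38.1 CPM against 213 CPM in the control library. These RNAs were at least 2-fold lower in both libraries. JPX and PVT1, also long noncoding RNAs, were not: their log2 ratios were -0.19 and -0.04 in the knockdown and -0.29 and -0.20 in the control library. Of 6 measured members of a list of nuclear-retained RNAs without MALAT1, NEAT1, KCNQ1OT1 and FTX were at least 2-fold lower in each library, and JPX, PVT1 and DLEU2 were not. Of all measured genes 12.7% were lower in the knockdown and 17.7% in the control library. FTX, a noncoding RNA of the X inactivation centre, stood at 4.24 CPM against 17.0 CPM in the knockdown and at 2.96 CPM against 12.7 CPM in the control library. The list's median log2 ratios were -1.29 and -1.40. Relative to protein-coding genes of like transcript length, described below, they were -0.61 and -0.67. With 3 members on each side, the median moved to -0.50 in the knockdown library with a mitochondrial limit of 0.1% or a minimum of 20000 UMIs. Noncoding RNAs as annotated were called lower at shares near those of all genes. Of lincRNAs other than MALAT1, 9 of 69 were lower in the knockdown and 15 of 79 in the control library (medians -0.08 and -0.20). Of antisense RNAs, 10 of 64 and 12 of 67 were lower (medians 0.01 and -0.13). These medians lay above those of all measured genes, which were -0.36 and -0.37. Long noncoding RNAs that host small nucleolar RNAs or work in the cytoplasm did not share the deficit: of 7 measured none passed 2-fold, and the medians were 0.23 and 0.31, with ZFAS1 at 1174 CPM against 1004 CPM in the knockdown and 874 CPM against 705 CPM in the control library.

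Across all genes the chosen barcodes had many lower and few higher RNAs. A gene was counted as measured with at least 10 CPM in either group and as called with a ratio of at least 2 and an interval that excludes 1, which sorts genes by size and tests nothing. In the knockdown library 968 of 7593 measured genes were lower (12.7%) and 5 were higher (0.0659%). For the control library, 1354 of 7634 were lower (17.7%) and 10 were higher (0.131%). Over the 7169 genes measured in both libraries, 769 were lower in both (10.7%), which is 79.4% of those lower in the knockdown and 56.8% of those lower in the control library. Just 2 were higher in both (0.0279%), and none was called in opposite directions. Pearson's r of the log2 ratios between libraries was 0.947 and Spearman's rho 0.946 across genes, which are not independent replicates. The median log2 ratio of all measured genes was -0.36 in the knockdown and -0.37 in the control library. Scaling without MALAT1, mitochondrial and ribosomal protein genes moved these medians to -0.28 and -0.26.

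The ratio to other cells followed transcript length. Each protein-coding gene outside the ribosomal proteins was classed by its longest annotated transcript, which need not be the one expressed. Genes under 1000 nt had a median log2 ratio of 0.24 in the knockdown and 0.30 in the control library, and those of 1000 to 2000 nt had 0.07 and 0.03. The medians were -0.19 and -0.22 at 2000 to 3000 nt, -0.48 and -0.47 at 3000 to 4000 nt, and -0.67 and -0.66 at 4000 to 6000 nt. They reached -0.83 and -0.89 at 6000 to 8000 nt and -0.92 and -0.99 at 8000 nt or more. The share of genes at least 2-fold lower was 1.92% in the knockdown and 2.58% in the control library in the shortest class, and 41.8% and 49.4% in the longest. Spearman's rho of the ratio with length was -0.671 over 7369 knockdown genes and -0.596 over 7397 control genes, which share their libraries and depth. Length classes were added after the data were seen.

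Cells that met 1 limit alone were compared as well, but they do not fully separate both RNAs. In MALAT1-poor only cells the median mitochondrial share was 0.821% in the knockdown and 1.17% in the control library. Cells poor in neither had 1.38% and 1.84%. The median MALAT1 share of mitochondria-poor only cells was 0.470% and 0.607%, against 1.07% and 0.614% in cells poor in neither. Against cells poor in neither, the barcodes poor in both had medians of 0.31 in the shortest and -1.10 in the longest class in the knockdown library, and of 0.35 and -1.12 in the control library. MALAT1-poor only cells showed the same order with a smaller span, from 0.23 in the shortest to -0.71 in the longest class in the knockdown and from 0.16 to -0.62 in the control library. Mitochondria-poor only cells showed little of it, with -0.05 in the shortest and -0.12 in the longest class in the knockdown, and 0.04 and -0.19 in the control library. Spearman's rho with length was -0.738 and -0.718 for MALAT1-poor only cells, and -0.082 and -0.289 for mitochondria-poor only cells. The last group is small, 106 knockdown and 51 control cells.

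**Figure D2:**
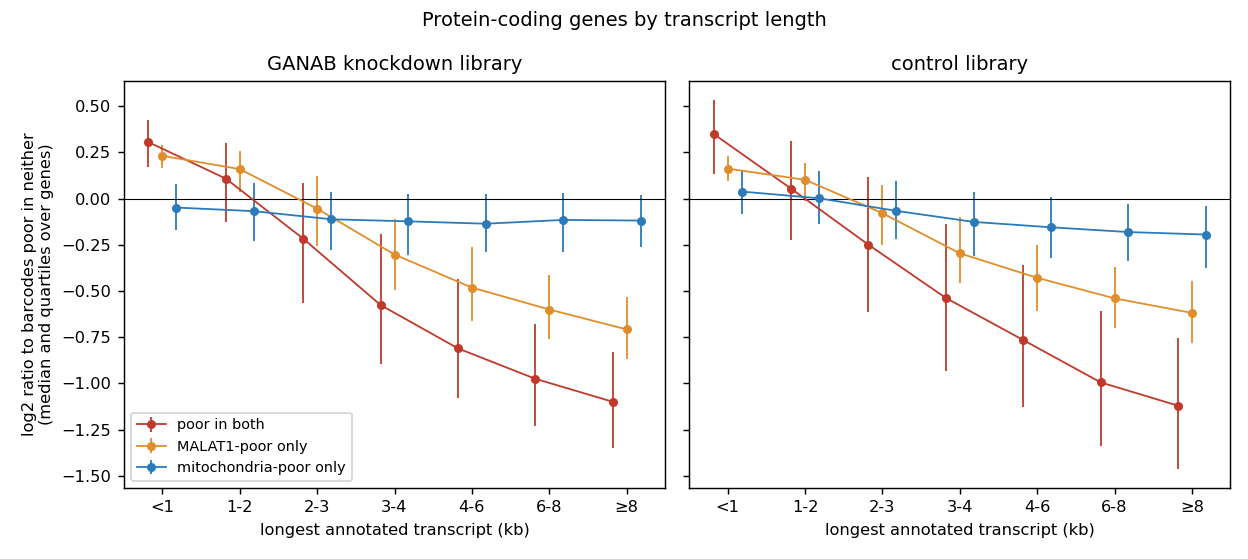
Log2 ratio of 3 kinds of barcode to barcodes poor in neither RNA, by longest annotated transcript in kilobases. Points are medians and bars quartiles over protein-coding genes other than ribosomal proteins. Medians of barcodes poor in both fall to -1.10 and -1.12 in the longest class, those of MALAT1-poor only cells to -0.71 and -0.62, and those of mitochondria-poor only cells stay near -0.12 and -0.19.

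Barcode by barcode, mRNAs with transcripts of at least 6000 nt made up a median of 7.05% of mRNA UMIs in the knockdown barcodes poor in both and 6.48% in those of the control library. The medians of MALAT1-poor only cells were 8.95% and 8.62%, of mitochondria-poor only cells 11.8% and 10.1%, and of all other cells together 11.2% and 10.6%. The groups overlapped: 91.9% of the knockdown and 97.2% of the control barcodes lay below the median of their other cells, and 4.91% and 2.10% of other cells lay below the median of the chosen barcodes. Free RNA held 9.65% long mRNA in the knockdown and 10.6% in the control library.

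**Figure D3:**
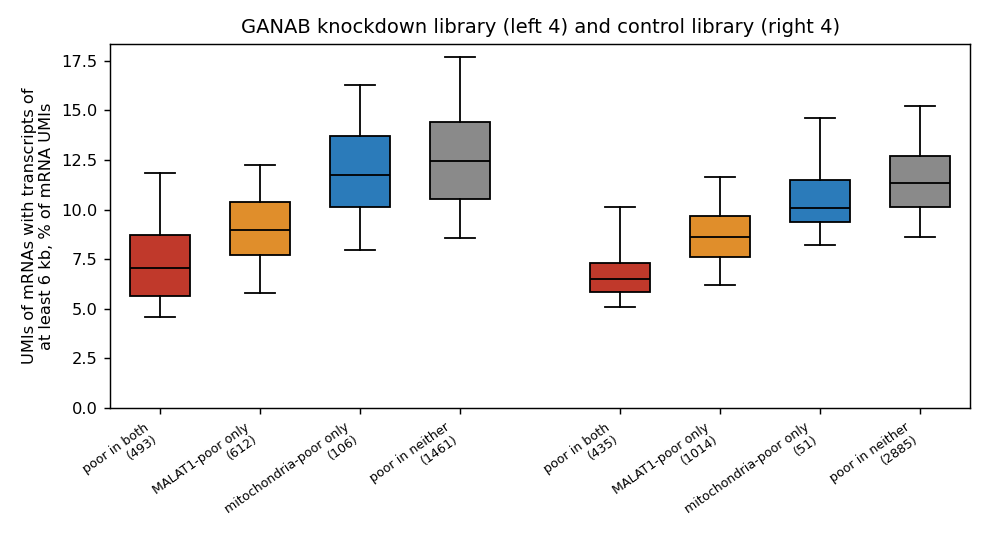
Percentage of mRNA UMIs from genes with transcripts of at least 6 kb in each kind of barcode, with boxes for quartiles, lines for medians and whiskers from the 5th to the 95th percentile over barcodes (numbers in brackets). The boxes of barcodes poor in both, with medians of 7.05% and 6.48%, lie lowest in both libraries.

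The naming rule also took the following genes as lower in both libraries. SYNE2, a giant protein that links the nuclear envelope to actin, stood at 22.4 CPM against 76.4 CPM in the knockdown and at 20.8 CPM against 77.5 CPM in the control library. GOLGA4, a coiled-coil protein of the trans-Golgi network, had log2 ratios of -1.67 and -2.18. TEAD1, a transcription factor of the Hippo pathway, had -1.55 and -2.03. DST, a cytoskeletal linker, had -1.48 and -1.75. KIF20B, a kinesin of cytokinesis, had -1.46 and -1.83. HMGCS1, an early enzyme of cholesterol synthesis, had -1.49 and -2.16.

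Some genes departed from their length class. Below it in both libraries lay HIST1H4C, a histone H4 gene, SQLE and HMGCS1 of cholesterol synthesis, VMP1, an ER protein of autophagy, and TAF15 and HNRNPAB, RNA-binding proteins. VMP1 stood at 76.1 CPM against 201 CPM in the knockdown and at 90.4 CPM against 316 CPM in the control library, 1.12 and 1.52 on the log2 scale below its class. Above their class lay FLNA, which crosslinks actin, at 315 CPM against 272 CPM and at 441 CPM against 298 CPM, and SKP1, RALY, HSBP1, TMED3, SLC12A5 and FUNDC2. Their longest annotated transcripts are all over 6000 nt, and which isoform was counted is not known.

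Nuclear genes for the respiratory chain did not share the mitochondrial deficit. The 13 mitochondrially encoded genes were used for the choice. Of the 11 measured, all were lower, with median log2 ratios of -5.06 and -5.71, as for MT-CO3 at 57.7 CPM against 1610 CPM in the knockdown and at 54.1 CPM against 2590 CPM in the control library. Of 31 nuclear-encoded oxidative phosphorylation genes, none was called lower or higher in either library, and their medians were 0.22 and 0.34. Relative to their length classes these medians were 0.16 and 0.29. Of protein-coding genes under 1000 nt, 1.92% were lower in the knockdown and 2.58% in the control library. Of all genes 12.7% were lower in the knockdown and 17.7% in the control library. NDUFB9, a subunit of complex I, stood at 538 CPM in the knockdown barcodes, against 361 CPM in other cells, and at 625 CPM against 362 CPM in the control library. COX6A1, a subunit of complex IV, stood at 901 CPM against 611 CPM and at 758 CPM against 470 CPM. Other nuclear-encoded mitochondrial proteins had medians of -0.15 and -0.32, and 1 of 21, the chaperone HSPD1, was called lower in the control library (327 CPM against 693 CPM), where in the knockdown it stood at 344 CPM against 564 CPM.

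Ribosomal protein genes took a larger share of UMIs. None of 78 measured passed 2-fold, where 12.7% and 17.7% of all genes were lower, and 1.92% and 2.58% of other protein-coding genes under 1000 nt. The median log2 ratios of these 78 were 0.25 and 0.28, and 0.12 and 0.17 relative to their length classes. RPLP1, a stalk protein of the large subunit, stood at 23230 CPM against 17278 CPM in the knockdown and at 19555 CPM against 13301 CPM in the control library. RPS26 had log2 ratios of 0.61 and 0.83, but it has near-identical processed copies with which reads can be shared. Translation factors had medians of 0.03 and -0.03, and none of 17 was called.

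The cell cycle lists had medians close to those of all genes, with some members lower. Of 20 measured G2 and M phase genes, 6 were lower in the knockdown and 7 in the control library, with medians of -0.38 and -0.40, where 12.7% and 17.7% of all genes were lower and the medians of all genes were -0.36 and -0.37. CENPF, CENPE, MKI67, TOP2A, KIF11 and TPX2 were lower in both libraries and NUSAP1 in the control library. CENPF, a kinetochore protein, stood at 30.6 CPM against 108 CPM in the knockdown and at 41.4 CPM against 145 CPM in the control library. MKI67, the proliferation antigen Ki-67, stood at 32.5 CPM against 98.9 CPM and at 37.6 CPM against 113 CPM. TOP2A, the mitotic topoisomerase, stood at 59.8 CPM against 166 CPM and at 61.3 CPM against 148 CPM. Their longest transcripts have 10307, 12678 and 5758 nt. Members that were not called included CCNB2, a B-type cyclin, at -0.35 in both libraries, and AURKB, a mitotic kinase, at -0.24 and -0.04. UBE2C, the ubiquitin-conjugating enzyme of the anaphase-promoting complex, with a transcript of 914 nt, stood at 580 CPM against 423 CPM and at 692 CPM against 632 CPM, where its log2 ratio of 0.13 was -0.06 under 1 alternative. CKS2, a cyclin-dependent kinase subunit of 613 nt, stood at 520 CPM against 394 CPM and at 428 CPM against 319 CPM. These differences also moved when the other cells were limited to a range of UMIs, which does not make depth equal. Against other cells within the 5th to 95th percentile of the chosen barcodes' UMIs, the G2 and M phase medians were 0.21 and 0.03, and those of S phase genes (2 of 18 lower in the knockdown, 2 of 20 in the control library) 0.00 and 0.05 in place of -0.40 and -0.35. MKI67 then had log2 ratios of -0.78 and -0.88, TOP2A -0.55 and -0.42, CENPF -1.27 and -1.31, and UBE2C 1.31 and 0.87.

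Histone genes of the replication-dependent clusters, whose mRNAs mostly end in a stem-loop without a poly(A) tail, were lower in part although short. Of the measured genes with HIST symbols, 6 of 17 were lower in the knockdown and 9 of 19 in the control library, where 1 was higher, HIST3H2A. Of all genes 12.7% and 17.7% were lower. The histone medians were -0.62 and -0.87. HIST1H4C stood at 92.1 CPM against 235 CPM in the knockdown and at 51.6 CPM against 208 CPM in the control library. HIST1H1D, a linker histone, stood at 7.05 CPM against 26.8 CPM and at 8.15 CPM against 44.6 CPM. With other cells limited to the range of UMIs used for the cell cycle lists, HIST1H4C had log2 ratios of -0.50 and -1.12, in place of -1.35 and -2.01.

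**Figure D4:**
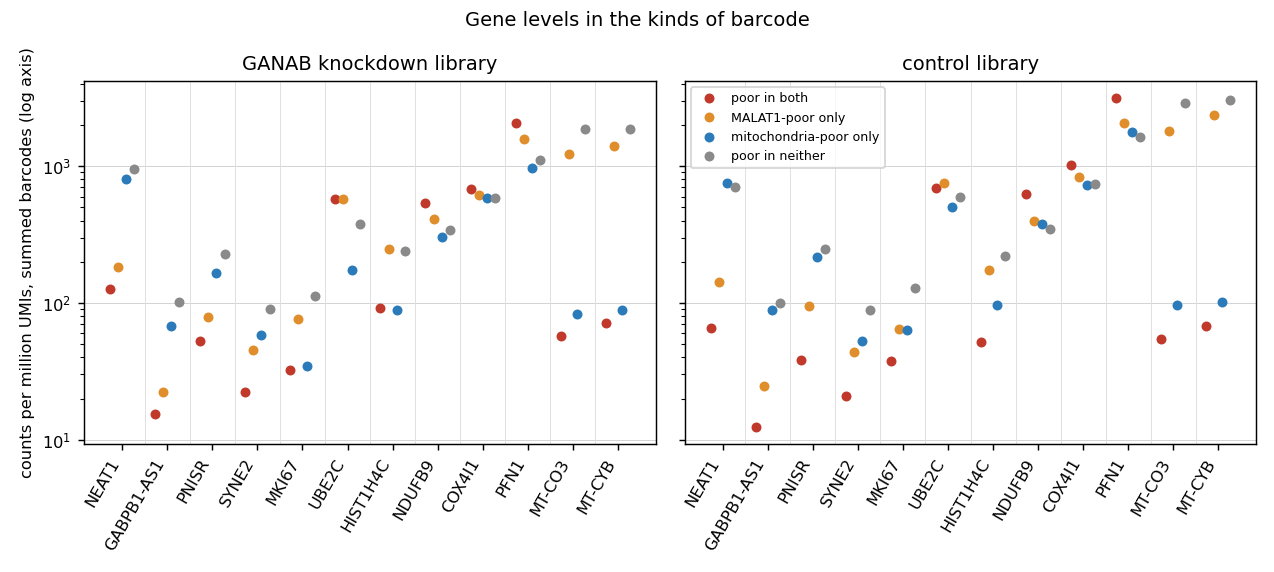
CPM of 12 genes (log axis) in the summed barcodes of each kind, without error bars. NEAT1, GABPB1-AS1 and PNISR are low in both kinds of MALAT1-poor barcode, MT-CO3 and MT-CYB in both kinds of mitochondria-poor barcode, and NDUFB9, COX4I1 and PFN1 are highest in barcodes poor in both.

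NEAT1 and GABPB1-AS1 were far lower in both kinds of MALAT1-poor barcode than in mitochondria-poor only cells, which by their definition did not meet the MALAT1 limit. In the knockdown library the mitochondria-poor only cells still lay below cells poor in neither. NEAT1 stood at 126 CPM in knockdown barcodes poor in both, 184 CPM in MALAT1-poor only, 810 CPM in mitochondria-poor only and 958 CPM in cells poor in neither. The control values in the same order were 65.3, 143, 755 and 708 CPM. GABPB1-AS1 stood at 15.4, 22.2, 68.4 and 101 CPM in the knockdown and at 12.4, 24.7, 88.5 and 99.8 CPM in the control library. MT-CYB, which the choice used, had 71.3 CPM in knockdown barcodes poor in both and 88.5 CPM in mitochondria-poor only cells, against 1399 CPM in MALAT1-poor only cells. MKI67 was low in both kinds of mitochondria-poor barcode of the knockdown library, at 32.5 CPM where poor in both and 34.4 CPM where mitochondria-poor only, against 76.3 CPM in MALAT1-poor only cells and 112 CPM in cells poor in neither. The control values in that order were 37.6, 63.1, 64.3 and 129 CPM. In the same order TOP2A had 59.8, 62.9, 150 and 180 CPM in the knockdown library. UBE2C differed from both, with 580, 175, 573 and 378 CPM in the knockdown and 692, 506, 760 and 595 CPM in the control library.

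In the lipid synthesis, chaperone and early response lists few members were called. Of the measured cholesterol synthesis genes, 2 of 11 were lower in the knockdown and 3 of 13 in the control library (medians -0.33 and -0.66), where 12.7% and 17.7% of all genes were lower. SQLE, squalene epoxidase, stood at 23.1 CPM against 63.2 CPM and at 44.9 CPM against 142 CPM, whereas FDPS, which makes farnesyl diphosphate, stood at 71.8 CPM against 73.4 CPM and at 147 CPM against 170 CPM. Of 15 ER chaperones, HSP90B1 was called lower in the control library (341 CPM against 685 CPM; 275 CPM against 491 CPM in the knockdown), and the medians were -0.40 and -0.42, near those of all genes. Relative to their length classes the ER chaperone medians were -0.02 and -0.13. Among 9 cytosolic heat shock genes, HSPH1 was lower in both libraries (log2 ratios -1.20 and -1.72) and HSP90AA1 in the control library (1392 CPM against 3540 CPM), while the small heat shock protein HSPB1 had 0.65 and 0.74. Of the immediate early genes, 0 of 15 were lower in the knockdown and 2 of 14 in the control library, with medians of 0.05 and -0.24. The 2 were the transcription factors JUN and KLF6, at -1.18 and -1.61, which had -0.44 and -0.86 in the knockdown, while JUNB had 0.60 in the knockdown and 0.25 in the control library. In the other lists, type I interferon had medians of -0.24 and -0.12, major histocompatibility class I 0.15 and 0.23, actin and tubulin cytoskeleton 0.04 and -0.02, hypoxia and glycolysis -0.06 and -0.08, calmodulin, ubiquitin and 14-3-3 proteins -0.20 and -0.28, with no member called. Chromatin and splicing genes had -0.35 and -0.44 with 1 and 4 of 23 lower, and apoptosis and p53 genes -0.26 in both libraries with 1 and 2 of 12 lower, MDM2 in both.

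Few genes were higher, and some of them rested on a handful of barcodes. ZNF90, a zinc finger gene on chromosome 19 (20077994 to 20127076, plus strand), stood at 96.8 CPM against 14.7 CPM in the knockdown and at 57.3 CPM against 11.3 CPM in the control library. The other gene called higher in both was AL136454.1, at 30.5 CPM against 5.26 CPM and at 25.4 CPM against 4.11 CPM, named after its value was seen. Clustering of the 928 barcodes set apart 15, of which 11 were knockdown and 4 control barcodes, led by KRT14, RAB25, SEMA4G, GSTM5 and UPK1B. They held 85.2% of the ZNF90 UMIs of the knockdown and 70.0% of those of the control barcodes. In the 11 knockdown barcodes SPANXB1, FAM133A and GANAB had 0 UMIs (exact Poisson upper bound 18.6 CPM each), against 436, 93.8 and 33.2 CPM in all chosen knockdown barcodes. In the 4 control barcodes SPANXB1 and FAM133A had 0 UMIs (upper bound 35.4 CPM), which the 13.3 and 11.6 CPM of all chosen control barcodes do not exceed, and GANAB had 2 UMIs. KRT8, also a UMUC3 marker, was present, with 28 UMIs (141 CPM) in the 11 and 6 UMIs (57.5 CPM) in the 4. The marker VGF had 0 UMIs in the 11 and 9 UMIs in the 4. The basal keratin KRT5 and the transcription factor GATA3, both known from urothelium, were at 85.9 CPM and 291 CPM, while EPCAM, CDH1 and UPK2 had no UMI. Their median long mRNA shares were 11.9% and 11.4%, unlike the chosen barcodes as a whole. These 15 and the collagen-carrying barcodes described below were then left out of the chosen barcodes only. Other cells with at least 1000 CPM of ZNF90, 8 in the knockdown and 6 in the control library, were kept. ZNF90 then had log2 ratios of -0.19 and -0.33. HIST3H2A had 0.15 and 0.23 in place of 0.83 and 1.67, and S100A6 0.11 and 0.27 in place of 0.76 and 1.21. No gene was then called higher in both libraries, and 801 were lower in both.

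Other leading genes were higher without resting on those barcodes. CCL2, a chemokine for monocytes, stood at 106 CPM against 40.5 CPM in the knockdown and at 192 CPM against 110 CPM in the control library, and was called in the knockdown. PFN1, which binds actin monomers, stood at 2061 CPM against 1242 CPM and at 3178 CPM against 1737 CPM. FXYD5, a regulator of the sodium pump, had log2 ratios of 0.74 and 0.76, CRIP2, a LIM domain protein, 0.80 and 0.83, IL32, a cytokine, 0.71 and 0.65, and TIMM17B, of the mitochondrial import machinery, 0.67 and 0.84. YIF1B, of ER to Golgi transport, had 0.63 and 0.88. These 7 genes kept their sign under the alternatives computed for them, and their longest transcripts are under 2000 nt.

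Markers of the tumour line were present at sums of 1374 and 1166 CPM, against 1304 and 1357 CPM in other cells. All 12 UMUC3 markers were found, of which 10 were measured in the knockdown and 12 in the control library, with medians of -0.08 and -0.27. In the control library 3 were lower, MME (log2 ratio -1.37), HMGA2 (-1.08) and FAM133A (-1.12), where 17.7% of all genes were lower. In the knockdown library MME had -0.87, HMGA2 -0.92 and FAM133A -0.64, and CD82 had -0.62 there and -0.85 in the control library. KRT8 stood at 235 CPM against 189 CPM in the knockdown and at 205 CPM against 151 CPM in the control library. Platelet markers were at 0 in all 6 genes. Summed erythroid markers stood at 0.583 and 0.667 CPM, against 0.685 and 1.30 CPM in other cells, with 5 of 8 at 0. Of 12 T and NK cell markers 8 were at 0 (CD3D and CD3E among them), and the list, mostly CCL5, summed to 249 and 0.593 CPM, against 275 and 2.14 CPM in other cells. Endothelial markers summed to 116 and 85.3 CPM, against 96.4 and 61.9 CPM in other cells. Of these 8 markers 4 were at 0 (VWF, KDR, CLDN5 and EMCN), and EGFL7 made up 116 and 85.1 CPM. Neutrophil markers, mostly G0S2, summed to 97.3 and 98.4 CPM, against 78.2 and 139 CPM, with 3 of 8 at 0. Macrophage and monocyte markers summed to 74.3 and 73.8 CPM, against 66.6 and 68.8 CPM, with 5 of 13 at 0 (CSF1R, C1QB and C1QC among them). B and plasma cell markers summed to 1.22 and 0.370 CPM, against 0.966 and 0.259 CPM, with 4 of 8 at 0, and dendritic cell markers to 0.530 and 0.222 CPM, against 0.439 and 0.125 CPM, with 4 of 7 at 0. Schwann and neural markers summed to 3.02 and 3.85 CPM, against 2.20 and 3.34 CPM, with 5 of 7 at 0, and urothelium markers to 3.39 and 5.04 CPM, against 2.16 and 1.98 CPM, with 3 of 10 at 0. The part of such cells in the results was not tested. Of the smooth muscle and pericyte markers, ACTA2 was called higher in the knockdown library (21.1 CPM against 10.2 CPM). It was not called in the control library (12.2 CPM against 11.002 CPM). Its log2 ratio was 1.05 in the knockdown, where 1 alternative gave -0.40. In the control library it was 0.14, and 2 alternatives changed its sign. The list, with 2 and 1 of 8 genes measured, summed to 51.8 and 18.1 CPM, against 30.6 and 16.7 CPM in other cells. Genes without a mouse orthologue had medians of 0.37 and 0.04 over 4 measured, with none called. General leukocyte markers summed to 3.50 and 1.56 CPM, against 2.40 and 1.41 CPM in other cells. Only the human gene set was counted, so markers of mouse cells can be lost.

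Fibroblast collagens sat in a few barcodes. The fibroblast list summed to 19.03 and 40.2 CPM, against 11.6 and 13.5 CPM in other cells, with DCN and LUM at 0. COL1A1, COL1A2 and COL3A1 reached at least 0.05% of UMIs in 6 knockdown and 4 control barcodes, against 10 and 24 other cells. Those few held 79.7% of the knockdown and 96.8% of the control collagen UMIs of the chosen barcodes. In the control library these genes were called higher, COL3A1 for example at 14.2 CPM against 3.04 CPM, and the extracellular matrix median was 0.82. These barcodes, picked by their collagen, and the 15 above were then left out of the chosen barcodes only. The 24 other cells of the control library stayed in, with 86.2% of the collagen UMIs of its other cells. The log2 ratio of COL3A1 was then -3.01 in place of 2.22, which is no reading of collagen in the remaining barcodes. The extracellular matrix median was 0.25. With a minimum of 50 CPM the median was -0.61. In the knockdown library the matrix median was -0.27 with all barcodes, with 1 of 8 measured genes lower, where 12.7% of all genes were lower.

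The chosen barcodes differed among themselves mostly by library. Of 7 clusters, 6 had at least 30 barcodes and the remaining one was the group of 15. Clusters 3, 4 and 5 held 122, 173 and 146 knockdown barcodes, against 11, 3 and 2 control barcodes. Clusters 1 and 7 held 7 and 4 knockdown barcodes, against 195 and 200 control barcodes, and cluster 2 held 30 and 20. A cluster made mostly of 1 library may be that library and not a cell type, and none was named, since none had 3 markers of a type among its 10 leading genes. Cluster 4 was led by the interferon-induced IFIT2, IFIT3, IFIT1, CCL5 and OASL, cluster 3 by G0S2, SPANXB1, UPP1, PTTG1 and CDKN3, and cluster 5 by ACTA2, HSPG2, CLIC3, S100A4 and IFI27. BDKRB1, EDIL3 and VGF led cluster 1, and MME, CDT1 and MCM7 cluster 7. Cluster 2, with a median of 67186 UMIs, was led by HIST1H4C, GTSE1, ASPM, CLSPN and CENPF of the dividing cell.

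Low NEAT1 and the length trend were seen in the large clusters of both libraries, at different strength. In the knockdown library NEAT1 stood at 35.6 CPM in cluster 3, 111 CPM in cluster 5 and 223 CPM in cluster 4. Among control barcodes it stood at 104 CPM in cluster 1 and 21.6 CPM in cluster 7. Against the other cells of its library, the longest mRNAs had medians of -1.81 in cluster 3, -1.29 in cluster 5 and -0.51 in cluster 4, where the shortest had 0.58, 0.20 and -0.04. Control barcodes had -0.90 for the longest mRNAs in cluster 1 and -1.29 in cluster 7, where the shortest had 0.15 and 0.43.

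The knockdown could be seen in the chosen barcodes. GANAB (chromosome 11, 62624826 to 62646726, minus strand) stood at 33.2 CPM (95% Poisson interval 30.6 to 35.9; 626 UMIs) in the knockdown, against 102 CPM (97.0 to 108; 1381 UMIs) in the control barcodes, a log2 ratio of -1.62 (-1.76 to -1.49). Other cells had 43.8 CPM in the knockdown and 128 CPM in the control library, a log2 ratio of -1.55 (-1.59 to -1.51). PRKCSH, the beta subunit of glucosidase II, stood at 43.3 CPM in the knockdown, against 84.7 CPM in the control barcodes. In other cells it stood at 46.9 CPM in the knockdown and 79.8 CPM in the control library.

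Of 6953 genes measured in the chosen barcodes, 213 were at least 2-fold higher (3.06%) and 190 lower (2.73%) in the knockdown than in the control library. In other cells 245 of 7947 were higher (3.08%) and 175 lower (2.2%). Both comparisons share libraries, and no test of a difference between them was possible. Of 12 measured type I interferon genes 9 were higher in the knockdown barcodes (median log2 ratio 2.92, against -0.03 for all genes), and of 15 in other cells 11 (3.0). ISG15, a ubiquitin-like protein, stood at 907 CPM in the knockdown against 200 CPM in the control barcodes. IFIT1, which binds foreign RNA, stood at 93.7 CPM against 5.19 CPM, and the chemokine CCL5 at 249 CPM against 0.519 CPM, which is 7 UMIs in the control barcodes. SPANXB1, a cancer-testis gene with near-identical copies, stood at 436 CPM against 13.3 CPM. CLIC3, a chloride channel family protein, stood at 55.1 CPM against 2.52 CPM. Of 13 cholesterol synthesis genes 6 were lower in the knockdown barcodes (median -0.999), and in other cells 8 (median -1.17). VGF, a secreted neuropeptide precursor, stood at 25.3 CPM in the knockdown against 288 CPM in the control barcodes. MME, the peptidase neprilysin, stood at 5.19 CPM against 61.6 CPM, BDKRB1, a bradykinin receptor, at 10.9 CPM against 80.7 CPM, and C15orf48 at 4.51 CPM against 63.6 CPM. CD82, GMDS and EDIL3 had log2 ratios of -2.12, -1.76 and -1.68.

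**Figure D5:**
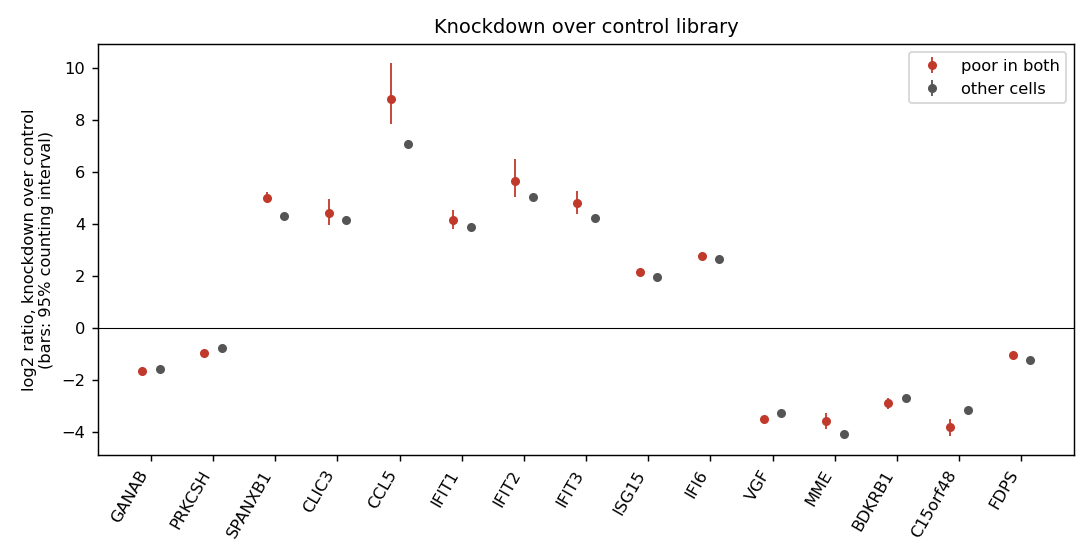
Log2 ratio of the knockdown over the control library for 15 genes, in barcodes poor in both RNAs and in other cells, with 95% counting intervals that leave out any spread between libraries. GANAB lies at -1.62 and -1.55, and each gene shown has the same sign in both kinds of cell.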

How the data were processed

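The authors deposited unfiltered UMI counts for each gene and barcode, made with Cell Ranger 3.1.0 against GRCh38, per the submitters' processing notes, from Chromium single-cell chemistry version 3, per the labels. Neither the strand rule nor a mouse genome in the reference is recorded there, and all 33538 genes listed are human. The libraries held 155064055 UMIs (knockdown) and 239857346 UMIs (control), of which the chosen barcodes held 18865768 and 13497610.

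Counts were summed over barcodes and divided by their total. Ratios (0.5 counts added) carry exact conditional binomial intervals, levels exact Poisson and shares Clopper-Pearson intervals at 95%. Transcript lengths and positions came from GENCODE release 29, matched by identifier for 33456 genes. Of 24 repeated symbols, the symbol stands for the identifier with more UMIs. Of 472 list symbols 462 were found. The chosen barcodes were clustered with scanpy 1.11.5 (2000 variable genes, 20 components, 15 neighbours, Leiden resolution 0.5). No doublet caller was run. The calling code was tested on simulated counts.

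The rule named 12 genes per direction by the smaller of both libraries' ratios (at least 50 CPM), 8 per direction between libraries, up to 4 per list and 5 per cluster; values of some genes it took are not reported here. Members, lists and rules were chosen with earlier results of these data known. The length classes, histone group, clusters' comparisons with other cells, genes off their length class and a few further genes (CDC20, CKS2, UBE2C and histones among them) were added after values were seen. Alternatives changed both limits, the UMI minimum, the CPM minimum, weighting, scaling and the other cells.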

Additional observations from a re-analysis of the deposited data

Results flagged for a closer look

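Barcodes of 5000 to 15000 UMIs were outside the comparisons. In this range 407 of 789 knockdown barcodes (51.6%, 48.03 to 55.1) and 423 of 682 control barcodes (62.0%, 58.3 to 65.7) met both limits, against 18.4% and 9.92% above 15000 UMIs. They were singled out because a signal appeared in data that the report does not use.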

How the results depend on the processing

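No paired analysis was possible because each group is 1 library. Leaving out the 15 and the collagen-carrying barcodes, among the chosen barcodes only, was an alternative added after seeing the data. Setting the chosen barcodes against cells poor in neither RNA was also added then. The number of genes lower in both libraries (769) was 185 with a minimum of 50 CPM, where 238 were lower in the knockdown and 404 in the control library, and 1294 against cells poor in neither RNA, where 1663 were lower in the knockdown library and 18 higher in the control library. Counts of higher genes are small. In the knockdown library 5 became 9 with 10000 UMIs, 12 with barcodes weighted equally and 2 with 50 CPM. The count was 11 with other scaling or with other cells limited to a range of UMIs. In the control library 10 became 5 with 20000 UMIs, 3 with 50 CPM or without the unusual barcodes, and 21 with other scaling. Higher in both were 4 genes with 10000 UMIs or equal weights, 1 with 50 CPM and 0 without the unusual barcodes. Between libraries, 50 CPM gave 70 higher and 47 lower genes, and scaling without MALAT1, mitochondrial and ribosomal protein genes 339 higher. The nuclear-retained median of the knockdown library was -0.50 with a mitochondrial limit of 0.1% or 20000 UMIs, -1.61 with equal weights and -2.54 with 50 CPM, and that of the control library -3.14 with 50 CPM. Genes at 15000 UMIs had a median of 2995 in the knockdown library with a mitochondrial limit of 0.5%. The median of mRNAs of 8000 nt or more lay between -1.10 and -0.83 in the knockdown and between -1.13 and -0.86 in the control library over 12 alternatives. The cause of these shifts was not tested beyond what each setting changes. Depth limits the rarest RNAs: KCNQ1OT1 rests on 19 UMIs in the knockdown and 7 UMIs in the control barcodes.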
